A study of Mus musculus with 16 samples.

Results

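The effect of continued passaging was examined in cultured alveolar macrophages of 2 lavage pools, 4 of the 16 libraries of the series. Alveolar macrophages are the resident phagocytes of the lung airspaces. In the body they renew themselves locally under the growth factor GM-CSF, take up and degrade surfactant lipids, and keep a lipid-handling programme run by the nuclear receptor PPARgamma. Dividing cells copy their DNA in S phase, then make the proteins of the spindle and of chromosome segregation in G2 and mitosis, so the transcripts of these phases can be read apart. Immediate early genes such as Fos and Junb encode unstable transcripts that appear within minutes of a stimulus or of handling.

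The later passages were pool 1 at passage 13 and pool 2 at passage 10. The earlier passages were pool 1 at passage 8 and pool 2 at passage 5. All 4 libraries came from C57BL/6 wild type cells, and each pool was sampled once at each stage. The members were taken from the pool and passage given in the labels, and pools were set against themselves. Later and earlier refer to passages within a pool, and the later passage of pool 2 lies between the 2 passages of pool 1. The number and age of the mice behind a pool, the culture medium and the time between passages are not stated in these sources. Nothing states whether the libraries came from separate dishes, so differences between these samples may be technical. The p-values of the fit of all 16 libraries take their spread mostly from the other 12 libraries. The 4 pool libraries alone leave 1 residual degree of freedom. The other 12 libraries were cultures of single mice (mexAM, passage not given), lung lavage cells (BALF), peritoneal lavage cells (PLF) and bone marrow derived macrophages (BMDM), with 3 libraries each. They entered the fits to estimate the spread. The labels give the same mouse numbers in each of these groups, and the fits held no term for mouse.

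RNA was measured by QuantSeq, which reads a tag near the 3' end of each messenger RNA. Counts in genes were 1490455 and 2884679 in the later libraries of pools 1 and 2, against 1038002 and 827791 in the earlier ones. A single count was worth 0.671 and 0.347 CPM (counts per 1000000 counts) in the later libraries and 0.963 and 1.21 CPM in the earlier ones. Mitochondrial transcripts took 15.1% and 13.7% of counts in the later libraries and 16.4% and 12.4% in the earlier ones. Counts outside genes made up 10.6% to 12.4% in all 4. In these bulk samples, fewer cells of a type and less RNA per cell cannot be told apart.

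The cultures carried alveolar macrophage markers at both stages. Siglecf, the lectin that marks alveolar macrophages, stood at 433 and 620 CPM in the later libraries of pools 1 and 2 and at 348 and 696 CPM in the earlier ones. Car4, a membrane carbonic anhydrase, had 432 and 596 CPM in the later libraries and 565 and 968 CPM in the earlier ones. For both genes the stages overlapped, and pool 2 was above pool 1 at each stage. Levels of the markers Fabp1, Pparg, Marco, Chil3 and Bhlhe41 are given below. Itgax, on the same marker list, had 60.3 and 39.1 CPM in the later libraries and 44.0 and 101 CPM in the earlier ones. BALF held 527 to 571 CPM of it. The macrophage marker Fcgr1 held 1 or 2 counts in each pool library. Adgre1, also a macrophage marker, had 239 and 205 CPM in the later and 205 and 152 CPM in the earlier libraries. Counts of the B cell marker Cd79a, the T cell marker Cd3e, the granule genes Elane and Mpo, the epithelial genes Sftpc and Scgb1a1, the fibroblast gene Col1a1 and the peritoneal factor Gata6 were 0 in all 4 libraries. Of the neutrophil markers, the calgranulin genes S100a8 and S100a9 lay lower in the later libraries, while Ly6g and Ctsg, like Elane and Mpo, held 0 or 1 counts in each pool library. S100a9 had 6.35 and 8.35 CPM in the later libraries, against 23 and 53 CPM in the earlier ones, and S100a8 had 156 and 68.1 CPM against 350 and 191 CPM. The summed level of the neutrophil list was 301 and 342 CPM in the later libraries and 500 and 422 CPM in the earlier ones, beside 339 to 794 CPM in mexAM and 140 to 165 CPM in BALF, and 5 of its 10 tested members lay below and 0 above without overlap, where 18% and 21.6% of all genes did (2 and 0 members in counts thinned to equal totals, where 12.5% and 21% of all genes did). S100a8 and S100a9 together fell by more than this sum in each pool, so the other members together were not lower. The part of the neutrophil list in the differences below was not tested.

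The later libraries of both pools resembled each other more than either resembled its own earlier library. Among 3213 genes that averaged 50 CPM or more in the pools, 15 (0.467%) differed by 2-fold or more between the later libraries of pools 1 and 2. Between later and earlier passage, this share was 3.73% in pool 1 and 7.94% in pool 2, and between the earlier libraries it was 6.66%. The median size of the log2 difference was 0.16 between the later libraries, 0.28 within pool 1, 0.36 within pool 2 and 0.36 between the earlier libraries. The Spearman correlation of log2 CPM across the genes tested followed the same order, with 0.979 between the later libraries, 0.957 within pool 1, 0.950 within pool 2 and 0.942 between the earlier libraries. Pairs across pools and stages did not follow the pool: pool 2 at passage 10 was nearer to pool 1 at passage 8 (3.3% of genes, median 0.25, correlation 0.962) than the 2 stages of pool 1 were to each other, and pool 1 at passage 13 differed from pool 2 at passage 5 in 7.97% (median 0.36, correlation 0.941). The library of pool 2 at passage 5, the shallowest of the 4, thus stood apart from the other 3, with 6.66% to 7.97% of genes at 2-fold or more in each of its pairs. These are descriptions of single pairs of libraries, and depth differs between them. Across genes, each library was closer to the mean of mexAM (0.954 and 0.966 in the later, 0.963 and 0.943 in the earlier libraries) than to the mean of BALF (0.870 and 0.877 in the later, 0.868 and 0.868 in the earlier libraries). For scale, mexAM and BALF differed in 3156 of 10527 genes by edgeR's quasi-likelihood test (30%), of which 1617 were higher and 1539 lower in mexAM. With library totals in place of TMM factors, which adjust for composition, that split was 2344 higher and 1117 lower.

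One gene passed the test between later and earlier passage. Rgs2 (ENSMUSG00000026360), which encodes an inhibitor of signalling through Gq-coupled receptors and lies at chr1:143999338-144004161 (minus strand, GRCm38), had 1068 and 1286 CPM in the later libraries of pools 1 and 2, against 362 and 339 CPM in the earlier ones. Both later libraries were well above both earlier ones, and at each stage the pools lay close together. Rgs2 rose by 1.74 ± 0.28 on the log2 scale (SE; edgeR quasi-likelihood test, adjusted p = 0.0477), and it was 1 of 10527 genes tested (0.0095%). The call was lost with any 1 of the 4 pool libraries left out (adjusted p = 0.323 to 0.688), with DESeq2's size factors in edgeR (0.0529), with library totals (0.0517), in thinned counts (0.0576) and in the fit of pool and mexAM libraries alone (0.486), while its log2 difference stayed between 1.56 and 1.94 in these settings. No gene was lower past the threshold. At an unadjusted p under 0.05 there were 905 genes (8.6%), 468 higher (4.45%) and 437 lower (4.15%) in the later passages. The threshold was crossed by 32 of 10527 genes with DESeq2 (0.304%, with 15 higher and 17 lower), whose default filter left some of these genes out of the adjustment. It was crossed by 140 of 8118 genes (1.72%, with 91 higher and 49 lower) when the 4 pool libraries were fitted alone, a fit with 1 residual degree of freedom. Both fits take the passage difference from the same 4 libraries as the fit of 16.

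Separation of the stages without overlap was common among genes that were not called. With 2 libraries against 2 it often arises without any passage difference, so these shares serve as a background. Both later libraries lay above both earlier ones in 2269 genes (21.6%) and below them in 1890 genes (18%). The later passage was higher in both pools in 27.7% of genes and lower in both in 24.3%. A change of 2-fold or more in both pools was found for 178 genes upward (1.69%) and 79 downward (0.75%). When the 4 libraries were thinned to 827791 counts each, 2215 genes (21%) were above and 1317 (12.5%) below. Thinned values were scaled by library totals without TMM factors, so these shares differ from the first in scaling as well as in depth. Without thinning, the median fitted log2 difference over all genes was 0.09 with library totals and 0.01 with TMM. The counts of list members below are read against these shares of all genes.

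Of 49 gene lists, that of mitosis and spindle assembly had the largest share of members higher in both later libraries. Of 46 tested members of 47, both later libraries lay above both earlier ones in 41 and below in 0, against 21.6% and 18% of all genes. None of the 46 was called by edgeR in the fit of 16 libraries and 1 (Cenpa) by DESeq2, while 19 had an unadjusted p under 0.05, all of them higher. The median log2 difference of the list was 0.93, with 0.75 in pool 1 and 0.82 in pool 2, against 0.01 over all genes tested. After thinning to equal totals, 42 members were above and 0 below. The fitted differences of 42 to 46 members were positive with any 1 pool library left out. In the fit of the 4 pool libraries alone, 11 of 45 members were called higher (24.4%, against 1.12% of all genes of that fit) and 0 lower.

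Summed over the list, mitotic transcripts made up 5594 and 5689 CPM in the later libraries of pools 1 and 2, against 3613 and 3181 CPM in the earlier ones. The mexAM cultures held 1897 to 2848 CPM and BALF 1039 to 1509 CPM. Every pool library was thus above every mexAM library, with the later passages highest.

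**Figure D1:**
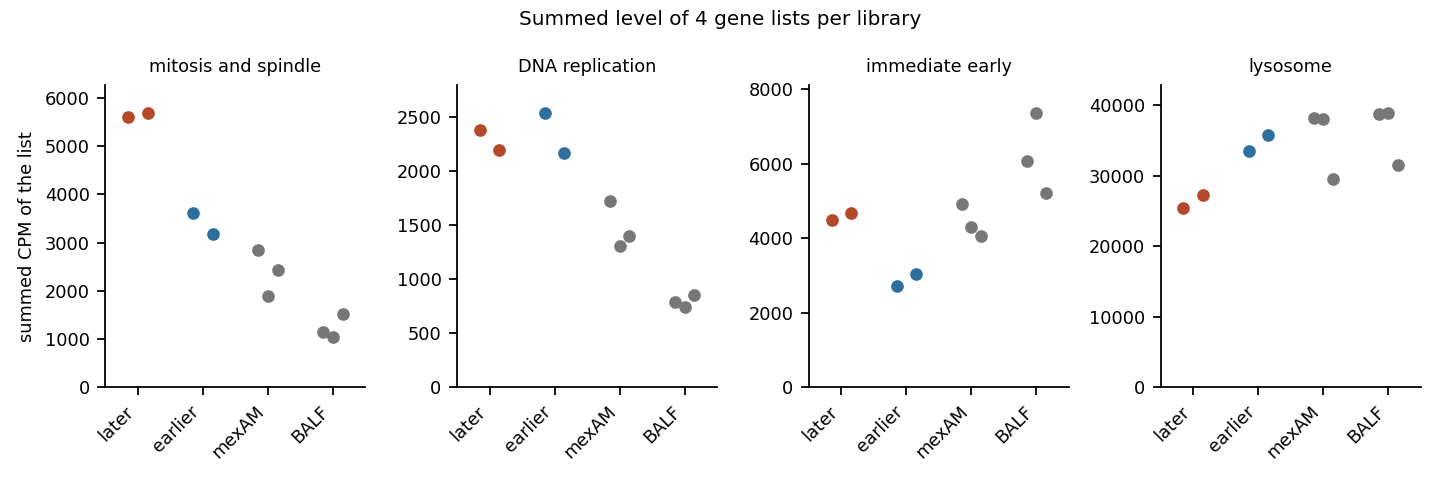
Summed CPM of the mitosis and spindle, DNA replication, immediate early and lysosome lists (y axes, each from 0), 1 point per library, in later pool, earlier pool, mexAM and BALF libraries. The later libraries stand apart from the earlier ones for mitosis (5594 and 5689 against 3613 and 3181 CPM) but not for DNA replication.

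Among the genes of this list, Cenpa, the histone H3 variant that marks centromeres, had 116 and 100 CPM in the later libraries of pools 1 and 2, against 31.6 and 60.4 CPM in the earlier ones. The difference was 1.27 ± 0.29 on the log2 scale and was not called (adjusted p = 0.191). Both later values lay above both earlier ones, and pool 1 had the wider gap. Ccnb2, which encodes cyclin B2, an activator of the mitotic kinase CDK1, had 88.2 and 91.2 CPM in the later libraries, against 33.5 and 50.6 CPM in the earlier ones. Ube2c, the ubiquitin-conjugating enzyme of the anaphase-promoting complex, had 89.5 and 102 CPM against 27.8 and 37.0 CPM. Again no later library overlapped an earlier one for either gene. Mki67, the widely used proliferation marker, had 254 and 313 CPM in the later libraries, against 190 and 81.4 CPM in the earlier ones. Here the gap was mostly in pool 2. Motor and midzone genes followed the same pattern: Cenpe, a kinetochore kinesin, had 140 and 197 CPM against 75.6 and 55.5 CPM, and Kif20a, a kinesin of the cleavage furrow, had 77.4 and 64.1 CPM against 25.8 and 28.4 CPM. Of the checkpoint and exit genes, Bub1, a kinase of the spindle checkpoint, had 122 and 104 CPM in the later libraries, against 50.7 and 53 CPM in the earlier ones. Cdc20, the activator of the anaphase-promoting complex, had 39.3 and 41.4 CPM against 13.4 and 23.4 CPM. Adjusted p-values of these members ranged from 0.191 to 0.494.

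Genes of this phase are known to share a promoter element, the cell cycle genes homology region (CHR), with the letters TTTGAA, bound by the DREAM and MMB complexes. RefSeq promoters (GRCm38.p6, 250 bases before to 50 after each start) were found for 39 tested members. These letters, on either strand, occurred in 31 of their 41 promoters (75.6%), against 17.9% of all 32851 promoters and 12.1% of those of genes tested. From 50 bases before the start onward the shares were 68.3% of the list and 3.2% of genes tested. The CCAAT box, searched as CCAAT on both strands, occurred in 75.6% of them, against 37.4% of all. The list was not chosen by these letters, and a match describes the sequence only. Promoters of 3 members are shown to let the element be seen near the start, with CHR letters in capitals and 30 bases after the start at the right end. They lie at chr9:70421525-70421804 (minus strand) for Ccnb2, chr5:30666636-30666915 (plus strand) for Cenpa and chr2:164769679-164769958 (plus strand) for Ube2c.
Ccnb2: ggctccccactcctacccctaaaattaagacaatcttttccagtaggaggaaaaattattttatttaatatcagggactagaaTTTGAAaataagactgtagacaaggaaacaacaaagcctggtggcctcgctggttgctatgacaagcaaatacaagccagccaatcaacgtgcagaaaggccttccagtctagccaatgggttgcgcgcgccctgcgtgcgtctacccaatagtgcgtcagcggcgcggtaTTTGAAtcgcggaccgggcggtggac
Cenpa: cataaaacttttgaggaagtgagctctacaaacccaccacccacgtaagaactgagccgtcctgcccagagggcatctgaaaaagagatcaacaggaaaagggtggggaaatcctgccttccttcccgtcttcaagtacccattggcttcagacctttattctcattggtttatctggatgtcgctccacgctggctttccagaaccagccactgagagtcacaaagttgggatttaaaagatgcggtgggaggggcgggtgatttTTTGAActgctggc
Ube2c: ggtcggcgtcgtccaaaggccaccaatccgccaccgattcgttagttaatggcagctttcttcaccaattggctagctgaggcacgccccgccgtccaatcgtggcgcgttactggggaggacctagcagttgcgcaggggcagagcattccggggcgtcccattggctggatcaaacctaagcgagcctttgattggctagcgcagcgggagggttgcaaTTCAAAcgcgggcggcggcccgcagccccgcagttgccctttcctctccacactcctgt

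DNA replication genes did not share this separation. Of 44 members, all tested, 7 lay above and 8 below without overlap (8 and 6 after thinning), below or near the shares of all genes (21.6% above and 18% below), no member was called by edgeR or by DESeq2, and 1 in each direction had an unadjusted p under 0.05. Their median log2 difference was -0.06, and the list summed to 2380 and 2196 CPM in the later libraries of pools 1 and 2, against 2542 and 2173 CPM in the earlier ones. Pcna, the sliding clamp of the DNA polymerases, had 145 and 140 CPM in the later libraries, against 166 and 181 CPM in the earlier ones. E2f1, an activator of S phase genes, had 16.5 and 20.7 CPM against 39.2 and 29.6 CPM, while Rrm1, a subunit of the enzyme that makes deoxynucleotides, had 117 and 140 CPM against 85.2 and 71.5 CPM. Single members thus lay on either side, and the list sums of the stages overlapped. The CHR letters occurred in 14% of the promoters of this list. All DNA replication sums of the pools were above those of mexAM (1311 to 1729 CPM) and BALF (746 to 858 CPM). DNA damage and repair genes lay between, with 9 of 20 above and 0 below, against 21.6% and 18% of all genes. After thinning it was 6 (30%) and 0, nearer to the 21% of all genes above. Of these genes, Brca1, which acts in repair of double-strand breaks, had 22.2 and 22.4 CPM in the later libraries, against 10.5 and 7.4 CPM in the earlier ones.

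**Figure D2:**
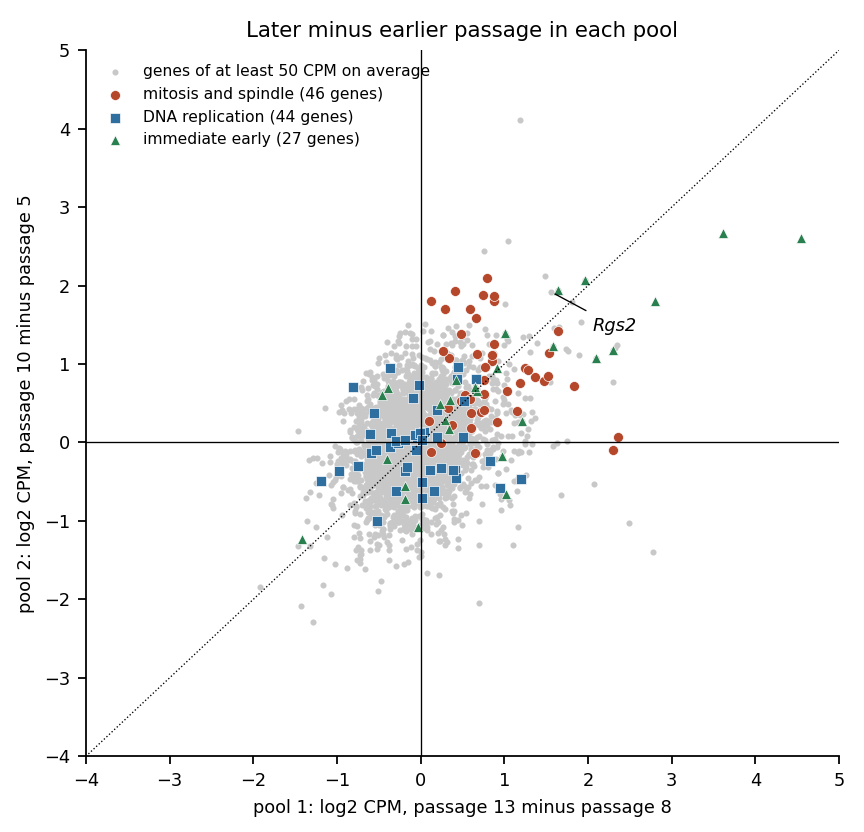
Later minus earlier difference in log2 CPM in pool 1 (x axis, passage 13 minus 8) and pool 2 (y axis, passage 10 minus 5) for genes of at least 50 CPM on average (grey) and the members of 3 lists, with the dotted line of equal differences. Mitosis and spindle genes lie almost all in the upper right, immediate early genes reach furthest along the line, and DNA replication genes scatter around 0.

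Brakes on the cell cycle were uneven. Cdkn1a, which encodes the p21 inhibitor of cyclin dependent kinases, had 522 and 289 CPM in the later libraries of pools 1 and 2, against 166 and 104 CPM in the earlier ones. Its difference was 1.57 ± 0.52 on the log2 scale (edgeR, adjusted p = 0.41). Both later libraries were above both earlier ones, beside the higher mitotic transcripts. Cdkn2a, the locus of p16 and p19Arf, went the other way, with 14.0 and 23.7 CPM in the later libraries, against 24.9 and 45.6 CPM in the earlier ones, and each pool was lower at its later passage. Trp53, which encodes p53, had 20.9 and 25.1 CPM against 19.1 and 19.7 CPM. Gdf15, a stress cytokine and p53 target, had 456 and 543 CPM in the later libraries, against 1734 and 1940 CPM in the earlier ones. This was a difference of -1.88 ± 0.65 on the log2 scale, not called in the fit of 16 libraries (adjusted p = 0.451) and with the smallest p of all genes in the fit of the 4 pool libraries alone (adjusted p = 8.08e-09). Gdf15 was singled out after its values were seen. Of 30 tested genes of the inhibitor and p53 list, 12 lay above and 6 below without overlap, against 21.6% and 18% of all genes, and 12 (40%) and 4 (13.3%) after thinning, against 21% and 12.5%. The lower members were thus near the share of all genes. The list summed to 2202 and 2095 CPM in the later libraries, against 3045 and 3248 CPM in the earlier ones. Gdf15 is part of this sum and fell by more than the sum in each pool, so the other members together were higher.

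Immediate early genes leaned higher in the later passages. Of 27 tested members of 28, 17 lay above and 5 below without overlap, where 21.6% and 18% of all genes did, none was called by edgeR and 2 by DESeq2 (Junb and Nr4a2, both higher), and 9 higher and 1 lower had an unadjusted p under 0.05. The median log2 difference was 0.61, with 0.68 in pool 1 and 0.66 in pool 2. In the fit of the 4 pool libraries alone, 9 of 25 were called higher (36%, against 1.12% of all genes) and 1 lower (4%, against 0.604%). After thinning, 17 lay above and 2 below (63% and 7.41%, against 21% and 12.5% of all genes). The list summed to 4480 and 4673 CPM in the later libraries, against 2710 and 3043 CPM in the earlier ones, and the later sums were within the range of mexAM (4069 to 4906 CPM).

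Junb, an AP-1 subunit, had 444 and 331 CPM in the later libraries of pools 1 and 2, against 89.0 and 146 CPM in the earlier ones. Its difference was 1.74 ± 0.42 on the log2 scale (edgeR, adjusted p = 0.207). Fosb, another AP-1 subunit, had 194.2 and 190 CPM in the later libraries, against 48.8 and 44.4 CPM in the earlier ones. Both AP-1 genes were at least 2-fold higher in each pool. The orphan nuclear receptors of the NR4A family had the widest gaps. Nr4a2 had 48.9 and 30.1 CPM in the later libraries, against 2.87 and 3.70 CPM in the earlier ones, a difference of 3.58 ± 0.85 on the log2 scale (adjusted p = 0.207). Nr4a1 had 27.3 and 16.0 CPM against 2.87 and 3.70 CPM. For Nr4a3 the counts were 43 and 41 in the later libraries and 0 and 1 in the earlier ones. In all 3 receptors the earlier libraries held 0 to 3 counts each, so the size of the difference is imprecise. Egr1, a zinc finger factor often induced with Fos, lay on the other side, with 14.0 and 29.7 CPM in the later libraries, against 39.2 and 71.5 CPM in the earlier ones, and Egr2 had 71.1 and 72.5 CPM against 72.7 and 154 CPM.

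Rgs2 and the NR4A genes are known to be induced by cAMP, and the cAMP-responsive factor CREB binds the letters TGACG, searched on both strands. They are a part of its full site, TGACGTCA. A match describes the sequence only, and the part of cAMP in these differences was not tested. Rgs2 is not a member of the immediate early list, so the list shares do not include it. TGACG occurred in 63.3% of the 30 promoters found for 24 tested immediate early genes, against 20.8% of all promoters and 31.9% of those of genes tested. From 50 bases before the start onward the shares were alike, 16.7% of the list and 16.3% of genes tested. The full site occurred in 3 of the 30 (10%), against 1.79% of all and 3.17% of genes tested, while the AP-1 letters TGANTCA occurred in 0 of the 30, against 7.81% of all and 5.03% of genes tested. The promoters of the called gene and of the family with the widest gaps are shown, with these 5 letters of either strand in capitals and 30 bases after the start at the right end. They lie at chr1:144004120-144004399 for Rgs2 and chr2:57123974-57124253 for Nr4a2, both on the minus strand.
Rgs2: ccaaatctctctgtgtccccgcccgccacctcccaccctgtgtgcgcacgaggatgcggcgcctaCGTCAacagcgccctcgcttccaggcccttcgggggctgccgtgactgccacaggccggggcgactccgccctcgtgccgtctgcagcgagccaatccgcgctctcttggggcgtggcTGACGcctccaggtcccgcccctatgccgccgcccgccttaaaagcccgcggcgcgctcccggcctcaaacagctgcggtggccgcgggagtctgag
Nr4a2: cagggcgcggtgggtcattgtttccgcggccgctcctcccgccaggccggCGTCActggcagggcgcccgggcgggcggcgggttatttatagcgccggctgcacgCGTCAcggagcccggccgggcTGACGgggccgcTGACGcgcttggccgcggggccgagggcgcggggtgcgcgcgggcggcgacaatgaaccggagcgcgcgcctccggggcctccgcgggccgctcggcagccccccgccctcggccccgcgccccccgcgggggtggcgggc

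The rule for named genes gave 12 genes in each direction by smallest p, of which Rgs2 alone was called. The adjusted p-values of the rest ran from 0.191 to 0.243. On the higher side stood Pnrc1, Spty2d1, Ets2, Tgif1, Cenpa, Cd14, Ccnl1, Cited2, Fbxo32, Junb and Trib1. Pnrc1, a nuclear receptor coactivator, had 268 and 242 CPM in the later libraries of pools 1 and 2, against 69.9 and 82.6 CPM in the earlier ones. Ets2, an ETS family transcription factor, had 117 and 81.5 CPM against 33.5 and 35.8 CPM. All of these later values were above all of the earlier ones. Tgif1, a repressor of TGF-beta responses, had 83.8 and 52.4 CPM in the later libraries, against 17.2 and 28.4 CPM in the earlier ones. Cited2, a CBP/p300 binding protein, had 131 and 141 CPM against 24.9 and 59.2 CPM. Cd14, the co-receptor for bacterial lipopolysaccharide, had 54.6 and 52.4 CPM in the later libraries, against 11.5 and 17.3 CPM in the earlier ones. Fbxo32, a ubiquitin ligase component, had 121 and 138 CPM against 39.2 and 49.3 CPM.

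On the lower side stood Marco, Il11ra1, Mien1, Chchd10, Necab1, Snx8, Mgll, Ndufb7, Slc7a11, Tmem160, Cyba and S100a1. Marco, a scavenger receptor for particles and bacteria that is typical of alveolar macrophages, had 411 and 95.2 CPM in the later libraries of pools 1 and 2, against 1007 and 470 CPM in the earlier ones. Its difference was -1.79 ± 0.38 on the log2 scale (edgeR, adjusted p = 0.191), and each pool was lower at its later passage, with pool 2 below pool 1 at both. Mgll, which cleaves monoacylglycerols, had 351 and 358 CPM in the later libraries, against 764 and 824 CPM in the earlier ones. Slc7a11, the cystine transporter, had 41.3 and 44.7 CPM against 85.2 and 133 CPM. Cyba, the p22phox subunit of the phagocyte oxidase, had 271 and 233 CPM in the later libraries, against 377 and 798 CPM in the earlier ones. For Cyba, Il11ra1, Mien1 and Ndufb7 the earlier library of pool 2 stood well above the earlier library of pool 1. Il11ra1, an interleukin receptor chain, had 32.4 and 41.4 CPM in the later libraries, against 89.0 and 180 CPM in the earlier ones. Necab1, a calcium-binding protein, was the only gene of the 24 whose stages overlapped, with 33.0 and 5.34 CPM in the later libraries and 92.8 and 21.0 CPM in the earlier ones, since the pools differed more than the stages.

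**Figure D3:**
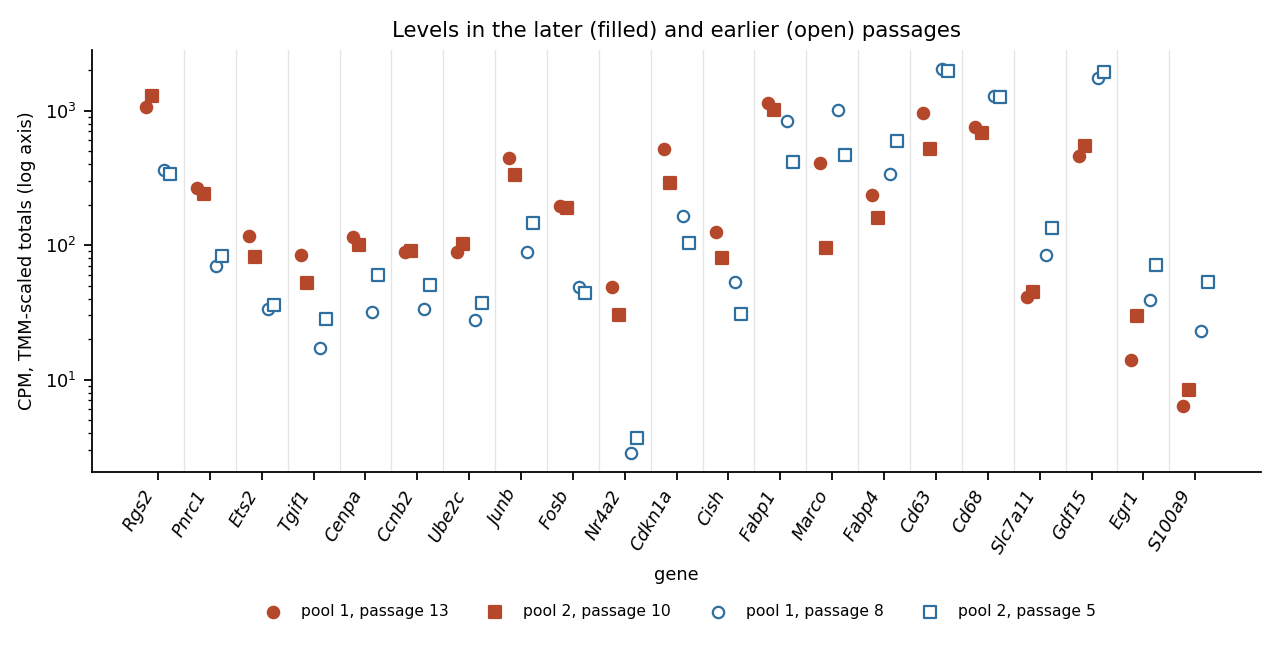
CPM of 21 genes described in the text (log y axis), with 1 point per library, later passages filled and earlier passages open, pool 1 as circles and pool 2 as squares. From Rgs2 to Fabp1 both later libraries lie above both earlier ones, and from Marco to S100a9 both lie below.

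Lysosomal genes leaned lower in the later passages. Of 42 members, all tested, 24 lay below and 4 above without overlap, where 18% and 21.6% of all genes did, and 20 (47.6%) and 4 (9.52%) after thinning, where 12.5% and 21% did. None was called by edgeR and 2 by DESeq2 (Cd63 and Cd68, both lower), and 7 lower and 2 higher had an unadjusted p under 0.05. The median log2 difference was -0.32 (-0.32 without the passage 5 library of pool 2), and the list summed to 25434 and 27280 CPM in the later libraries of pools 1 and 2, against 33500 and 35841 CPM in the earlier ones. Cd63, a tetraspanin of late endosomes, had 965 and 514 CPM in the later libraries, against 2030 and 1960 CPM in the earlier ones. Cd68, the macrophage lysosomal glycoprotein, had 751 and 678 CPM against 1293 and 1262 CPM. Psap, the precursor of the saposins that assist lipid breakdown, had 1234 and 1389 CPM in the later libraries, against 2340 and 2057 CPM in the earlier ones. All 3 were lower in both later libraries than in either earlier one, with the wider gap for Cd63 in pool 2. Man2b1, a lysosomal mannosidase, lay on the other side, with 299 and 312 CPM in the later libraries, against 229 and 212 CPM in the earlier ones.

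Genes of the oxidative stress response controlled by NRF2 also leaned lower, with 16 of 26 below and 1 above without overlap, against 18% and 21.6% of all genes, and 12 (46.2%) and 1 (3.85%) after thinning, against 12.5% and 21%. By edgeR 0 were called, by DESeq2 1 (Slc7a11), and 4, all lower, had an unadjusted p under 0.05. The median log2 difference was -0.30, and -0.22 without the passage 5 library of pool 2. The list sum did not follow the count: it was 31739 and 27747 CPM in the later libraries of pools 1 and 2, against 27102 and 38019 CPM in the earlier ones, so it was higher at the later passage in pool 1 and lower in pool 2. Most of that sum lay in the metallothioneins Mt1 and Mt2 and the ferritin heavy chain Fth1, whose stages overlapped. Sqstm1, an autophagy receptor, had 529 and 558 CPM in the later libraries of pools 1 and 2, against 773 and 978 CPM in the earlier ones. Hmox1, which degrades haem, had 252 and 234 CPM against 364 and 409 CPM. Ftl1, the ferritin light chain, had 1271 and 1317 CPM in the later libraries, against 1765 and 2294 CPM in the earlier ones. The stages did not overlap in any of these 3 genes, and the gap was wider in pool 2 for Sqstm1 and Ftl1.

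Nuclear-encoded respiratory chain genes leaned lower in pool 2, with a median near 0 in pool 1. Of 49 members, all tested, 19 lay below and 3 above without overlap, against 18% and 21.6% of all genes, and 13 (26.5%) and 4 (8.16%) after thinning, against 12.5% and 21%. Of them 0 were called by edgeR or DESeq2. Ndufb7, a respiratory chain gene outside the list, was called lower by DESeq2 (adjusted p = 0.0499). Of the list members, 6, all lower, had an unadjusted p under 0.05. The median log2 difference was 0.04 in pool 1 and -0.44 in pool 2, and the fitted median was 0.04 without the earlier library of pool 2 and 0.07 without its later library, against -0.29 with all libraries. The list summed to 7521 and 7240 CPM in the later libraries of pools 1 and 2, against 7724 and 10546 CPM in the earlier ones. These are short transcripts, with a median annotated length of 929 bases over 42 members, against 3166 bases over 3182 genes of at least 50 CPM. Length moved with the differences in that pool: across the 3182 genes, which are not independent, the Spearman correlation of transcript length with the later minus earlier difference was 0.498 in pool 2 and -0.109 in pool 1. The median difference in pool 2 was -0.29 in the 1063 shortest of these genes and 0.31 in the 1060 longest, and in pool 1 it was -0.01 and -0.12. The part of transcript length in the result was not tested. The mitotic genes had a median length of 3052 bases, close to that of all genes, the immediate early genes 2608 bases and the lysosomal genes 2506 bases.

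**Figure D4:**
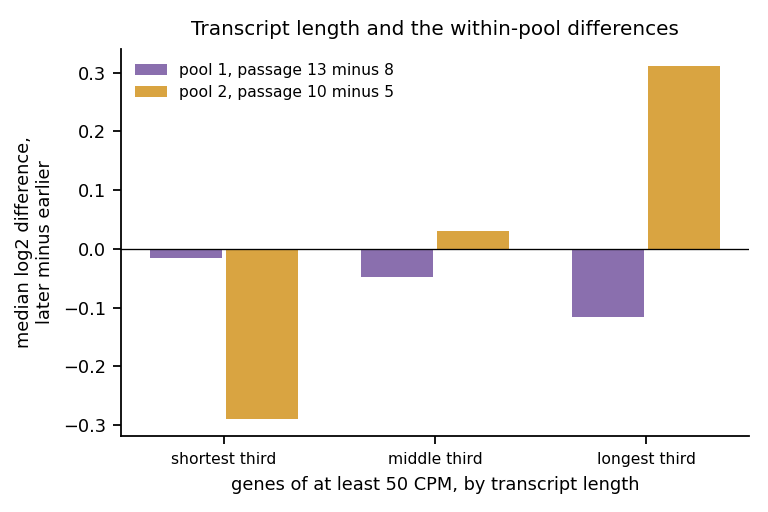
Median later minus earlier log2 difference in pool 1 and pool 2 (y axis) in 3 near-equal groups of 3182 genes of at least 50 CPM by annotated transcript length (x axis, shortest to longest). In pool 2 it runs from -0.29 to 0.31, and in pool 1 it stays between -0.12 and -0.01.

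Genes of alveolar macrophage identity lay on both sides, more of them lower in the later passages. Of 40 members, all tested, 7 lay above and 17 below without overlap, where 21.6% and 18% of all genes did, and 7 (17.5%) and 11 (27.5%) after thinning, where 21% and 12.5% did. By edgeR 0 were called and by DESeq2 1 (Marco), and 2 higher and 6 lower had an unadjusted p under 0.05. The median log2 difference was -0.08, with -0.05 in pool 1 and -0.31 in pool 2. The list summed to 40898 and 39405 CPM in the later libraries of pools 1 and 2, against 45168 and 56909 CPM in the earlier ones, so both later sums were below both earlier ones. Fatty acid binding proteins diverged. Fabp1 had 1149 and 1016 CPM in the later libraries of pools 1 and 2, against 831 and 416 CPM in the earlier ones, while Fabp4 had 235 and 159 CPM against 336 and 595 CPM. Neither was called (adjusted p = 0.546 for Fabp1 and 0.508 for Fabp4), and in each the stages did not overlap. Pparg, the master regulator of the lipid programme, had 137 and 115 CPM in the later libraries, against 55.5 and 102 CPM in the earlier ones. Bhlhe41, a transcription factor of alveolar macrophages, had 764 and 810 CPM against 823 and 855 CPM, a difference of -0.09 ± 0.21 on the log2 scale. Chil3, a chitinase-like lectin, had 2744 and 1661 CPM in the later libraries and 2076 and 2015 CPM in the earlier ones, with no separation.

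Of 23 tested genes of GM-CSF and STAT5 signalling, 10 lay above and 1 below without overlap, against 21.6% and 18% of all genes, and 8 (34.8%) and 1 (4.35%) after thinning, against 21% and 12.5%. Their median log2 difference was 0.18. The list sum did not separate the stages, with 4796 and 3819 CPM in the later libraries of pools 1 and 2, against 5128 and 3307 CPM in the earlier ones. Cish, a feedback inhibitor induced by STAT5, had 126 and 80.1 CPM in the later libraries of pools 1 and 2, against 53.6 and 30.8 CPM in the earlier ones (1.30 ± 0.42 on the log2 scale, adjusted p = 0.402). Pim1, a survival kinase, had 499 and 417 CPM against 276 and 232 CPM. The receptor chain Csf2ra was on the other side, with 355 and 317 CPM in the later libraries, against 845 and 672 CPM in the earlier ones, and its partner Csf2rb, with 459 and 363 CPM against 547 and 340 CPM, did not separate. Neither Pim1 nor Csf2ra was called in the fit of 16 libraries. In the fit of the 4 pool libraries alone, Cish and Socs3 were called higher, 2 of 17 members (11.8%, against 1.12% of all genes). Csf2ra was the 1 member called lower there (5.88%, against 0.604%).

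Inflammatory mediators lay on both sides. Of 31 tested members, 10 lay above and 7 below without overlap, against 21.6% and 18% of all genes, and 9 (29%) and 3 (9.68%) after thinning, against 21% and 12.5%. The list summed to 13910 and 14077 CPM in the later libraries of pools 1 and 2, against 17127 and 25174 CPM in the earlier ones, while single mediators lay higher. Il1b, which encodes interleukin 1 beta, had 128 and 124 CPM in the later libraries of pools 1 and 2, against 33.5 and 56.7 CPM in the earlier ones. Cxcl2, a neutrophil-attracting chemokine, had 178 and 243 CPM against 34.5 and 105 CPM, and Tnfaip3, the A20 brake on NF-kB, had 56.5 and 34.4 CPM against 4.79 and 13.6 CPM. These 3 were among 5 of 16 members called higher in the fit of the 4 pool libraries alone (31.2%, against 1.12% of all genes). In that fit 0 members were called lower, and none was called in the fit of 16 libraries. Of the neutrophil markers, S100a8 and S100a9 lay lower in the later libraries and Elane, Mpo, Ctsg and Ly6g were at 0 or 1 counts.

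Glycolysis genes lay above in 9 and below in 2 of 16, against 21.6% and 18% of all genes, with a median log2 difference of 0.46. After thinning these were 6 (37.5%) and 0, against 21% and 12.5%. Their sums overlapped, with 2383 and 1983 CPM in the later libraries of pools 1 and 2, against 1949 and 2052 CPM in the earlier ones. Gapdh and Pgk1 of this list held 0 to 14 counts in each pool library and were not tested. Hypoxia genes lay above in 7 and below in 1 of 17, and above in 7 (41.2%) and below in 0 after thinning, with a median of 0.44. They summed to 1878 and 1388 CPM in the later libraries, against 1107 and 1029 CPM in the earlier ones. For Vegfa, the endothelial growth factor, the counts were 40 and 55 in the later libraries and 1 and 1 in the earlier ones. Hilpda, a lipid droplet protein induced by low oxygen, had 567 and 339 CPM in the later libraries, against 169 and 148 CPM in the earlier ones.

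**Figure D5:**
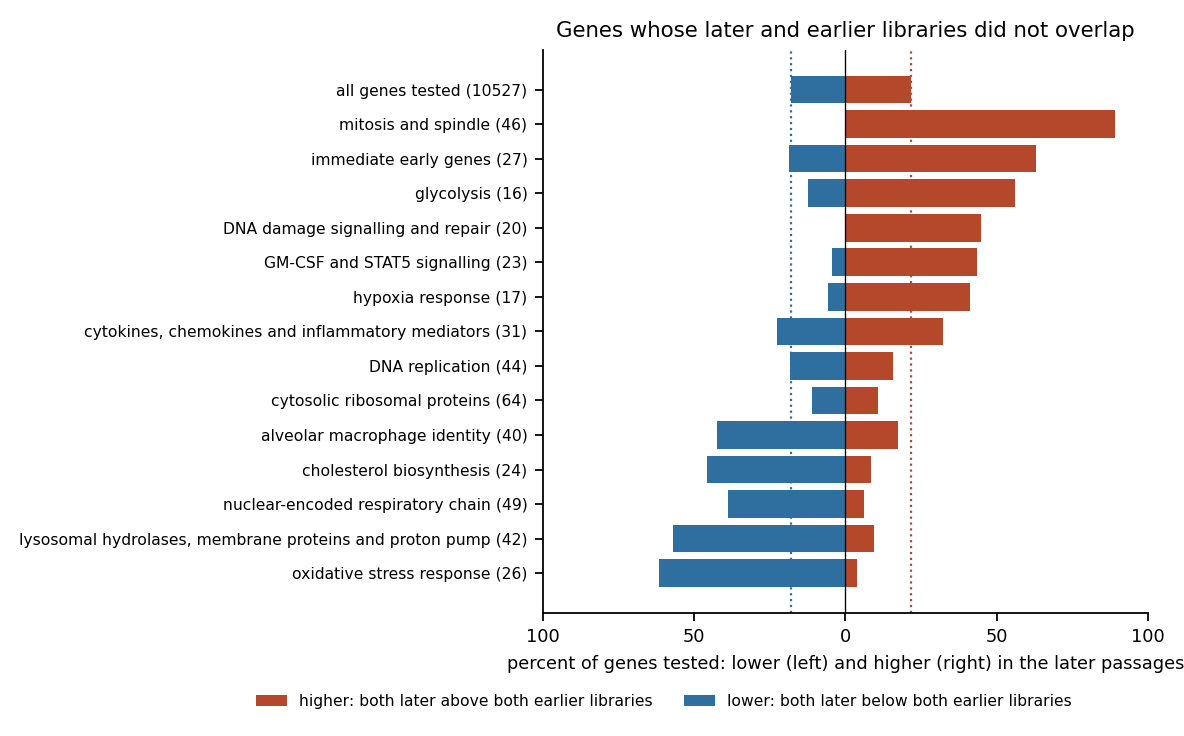
Share of the tested genes of each list (number in brackets) whose 2 later libraries both lay above (right, red) or both lay below (left, blue) the 2 earlier libraries, with dotted lines at the shares of all genes, 21.6% and 18%. Mitosis and spindle genes reach the furthest to the right (41 of 46) and oxidative stress genes the furthest to the left (16 of 26), an order that turns after thinning, where 47.6% of lysosomal and 46.2% of oxidative stress genes lay below.

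Pools differed from each other in few genes. Pool 2 minus pool 1 over both stages gave 3 calls (0.0285%) with 361 genes at an unadjusted p under 0.05 (3.43%). Cd93, a C-type lectin-like receptor, was higher in pool 2, with 287.9 and 415.7 CPM at the later and earlier passage of pool 2, against 48.9 and 71.8 CPM in pool 1 (2.54 ± 0.28 on the log2 scale, edgeR adjusted p = 1.70e-04). Necab1 and Bmp8a, a bone morphogenetic protein, were lower in pool 2, by -2.37 ± 0.38 and -3.92 ± 0.65 on the log2 scale (adjusted p = 0.0257 for both). The passage difference itself was tested between the pools, and 0 of 10527 genes were called by edgeR, with 470 at an unadjusted p under 0.05 (4.46%), and 0 by DESeq2, with 258. Within single genes, Itgam, the integrin chain CD11b, had 71.7 CPM in the later library of pool 1 and 13.4 CPM in that of pool 2, against 11.5 and 9.87 CPM in the earlier libraries, so its gap was almost all in pool 1.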

How the data were processed

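The authors' deposited files hold raw counts per gene, 1 file per library, with 47643 Ensembl identifiers, of which GENCODE release M21 names 47224; the other 419 held 0.0338% of counts and stayed in the fits. The build is GRCm38 (mm10) per the submitters' processing notes. Aligner, counting program, strand setting and use of molecular identifiers are not stated in these sources, so antisense and near-identical genes may share or lose counts. The 5 lines that name no gene were left out of library totals.

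Genes passing filterByExpr (10527) were scaled by TMM and fitted in all 16 libraries by edgeR 4.0.16, robust quasi-likelihood (R 4.3.3, limma 3.58.1), with terms for BALF, PLF, BMDM, mexAM and each pool plus 1 later-passage term (9 residual degrees of freedom, 8 with the pool by passage term). Benjamini-Hochberg adjustment ran over every gene tested in the edgeR fits. In DESeq2 its default filter on low mean counts left some of the genes out of the adjustment. Called means adjusted p under 0.05. Standard errors are the fold change divided by the root of F. Pool was the replicate block because both libraries of a pool come from the same lavage pool per the labels; the deviations of same-pool libraries correlated at 0.057 across genes. CPM used TMM-scaled totals, and single-pool log2 differences a prior count of 2. Counts of genes without overlap after thinning used library totals without TMM factors. No pair of libraries was identical. The fit was checked on simulated data.

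The members and the 49 gene lists were chosen with earlier results of these data known. Lists are described by counts and medians beside all genes, without a test. Named genes were the called ones, followed by the smallest p-values up to 12 in each direction (the higher group averaging 50 CPM or more, same direction in both pools), plus 29 macrophage and cell cycle genes, of which a selection is given; results for some genes are not reported here. Other genes, including list members shown with values, were chosen after their values were seen. Alternatives were DESeq2 1.42.0, other scalings, no filter, thinned counts, fewer libraries, no block and each pool library left out. Promoters come from RefSeq, and transcript lengths are the longest protein-coding transcript in GENCODE.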

Additional observations from a re-analysis of the deposited data

How the results depend on the processing

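The count of genes called between later and earlier passage was 1, and it was 0 with DESeq2's size factors in edgeR, with library totals alone, with the pool libraries thinned to the smallest total, with the 4 pool and 3 mexAM libraries alone, and with any pool library left out (0 to 0). It was 91 without a filter on low counts, 32 with DESeq2's Wald test and 140 with the 4 pool libraries alone. Without mitochondrial transcripts and ribosomal RNA loci, and without the pool as replicate block, it was 1. Pool 2 against pool 1 gave 3 calls, with 22 without a filter, 1 after thinning and 6 with DESeq2. The pool by passage term gave 0 calls, with 5 without a filter. The cause of these shifts was not tested. Among 51 named genes under all alternatives, 555 of 660 values kept direction and side of the threshold, 76 crossed it, 8 lost it (each of them Rgs2) and 21 reversed, all of them in genes not called. Csf1r reversed with library totals (0.038) and thinning (0.12), and Malat1 without the block (-0.0012). With single libraries left out, the log2 differences ran from -0.28 to 0.43 for Chil3, -0.26 to 0.18 for Csf1r, -0.25 to 0.11 for Csf2rb, -1.37 to 0.48 for Itgax, -0.36 to 1.55 for Maf, -0.44 to 0.57 for Malat1, -0.42 to 0.63 for Mrc1, -0.17 to 0.35 for Siglecf and -2.32 to 0.96 for Xist. Depth limits low transcripts: with 1 count worth up to 1.21 CPM, genes under a few CPM at the earlier passages have imprecise folds.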

Other observations

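Of the lists not described above, 3 that leaned lower in the later passages are given with values chosen after they were seen, and no member of them was called by edgeR. Of 25 tested genes of matrix proteins, proteases and inhibitors, 2 lay above and 7 below without overlap, against 21.6% and 18% of all genes, and 1 (4%) and 6 (24%) after thinning, against 21% and 12.5%. Their median log2 difference was -0.77, and they summed to 2884 and 2928 CPM in the later libraries of pools 1 and 2, against 4143 and 5821 CPM in the earlier ones. Most of that sum was Spp1, which encodes osteopontin, with 1531 and 1398 CPM against 2228 and 2779 CPM, and Gpnmb, a transmembrane glycoprotein, with 1131 and 1390 CPM against 1735 and 2715 CPM. Cholesterol biosynthesis genes lay above in 2 and below in 11 of 24, and in 2 (8.33%) and 9 (37.5%) after thinning. Their median log2 difference was -0.52 in pool 1 and -0.02 in pool 2, and -0.01 without the earlier library of pool 1, against -0.29 with all libraries. Macrophage lineage genes lay above in 2 and below in 8 of 22, and in 2 (9.09%) and 7 (31.8%) after thinning, with a median log2 difference of -0.35. In the fit of the 4 pool libraries alone, Cd14 and Itgam were called higher, 2 of 16 members (12.5%, against 1.12% of all genes), and 0 lower. DESeq2 called Cd14 higher and Cd68 lower. Lyz2, which encodes lysozyme, had 8292 and 9364 CPM in the later libraries of pools 1 and 2, against 9995 and 18257 CPM in the earlier ones.

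Of 64 tested ribosomal protein genes, 7 lay above and 7 below without overlap, and 11 and 5 after thinning. Of 40 interferon stimulated genes 7 lay above and 2 below, and 6 (15%) and 5 (12.5%) after thinning, near or under the shares of all genes. B cell markers summed to 3.17 and 2.67 CPM in the later libraries of pools 1 and 2, against 7.66 and 19.7 CPM in the earlier ones. Ptgs1, which encodes cyclooxygenase 1, had 38.7 and 17.4 CPM in the later libraries, against 3.83 and 3.70 CPM in the earlier ones, a difference of 2.88 ± 0.58 on the log2 scale (edgeR, adjusted p = 0.191). Fcgr2b, the inhibitory Fc receptor, had 85 and 85 counts in the later libraries, against 8 and 0 counts in the earlier ones. Both genes were singled out after their values were seen.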
